A study of Mus musculus with 9 samples.

Results

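The 37 genes described here are T cell and natural killer (NK) cell genes, chosen by name from the 46958 genes of a table of RNA sequencing counts. They were measured in spleen cell fractions pulled out with CD138 beads, CD138 being carried by plasma cells, and these fractions were not pure. There were 3 genotypes with 3 mice each and 1 library per mouse, all 3 months old, non-immunized and of a mixed C57/BL6, 129/SV and BALB/c background. WT mice were the wild type. DH-LMP2A mice are named for LMP2A, a membrane protein of Epstein-Barr virus that can stand in for B cell receptor signals, and kFRA mice are those in which the series studies the effect on plasma cells of a light chain from light chain deposition disease. The labels do not describe the alleles, their promoters or what the 3 genotypes share further. All 3 groups held the same isolated fraction, so the values below are those of bulk RNA from plasma cells with whatever other cells came along, T and NK cells among them.

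T cells recognise antigen through a receptor whose alpha and beta chains are held at the surface by the CD3 chains. The kinase Lck, carried by the co-receptors CD4 or CD8, starts the signal and Zap70 and the adaptor Lat pass it on. Helper T cells carry CD4, killer T cells a CD8 protein of an alpha and a beta chain, regulatory T cells the transcription factor Foxp3, and NK cells lack the T cell receptor, carry NKp46 (the product of Ncr1) and kill with perforin and granzymes. All of these cells live in the spleen beside plasma cells.

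Total counts per library ranged from 15449026 to 21558128, so that 3 counts, taken as the floor of detection, stood for 0.127 to 0.205 CPM, the count per 1000000 scaled counts. CPM were scaled by edgeR's trimmed mean of M values (TMM). Of the markers of the labelled cell type, all 7 plasma cell genes were above 3 counts in every library and summed to between 18651 and 46697 CPM. Markers of other spleen cells were present too, all 10 of B cells and all 10 of myeloid cells in every library. Erythroid markers differed most between the genotypes, and 6 of 8 were above 3 counts in every library. Their summed level was 51.0 to 336.9 CPM in WT, 1169 to 2793 CPM in kFRA and 2533 to 13564 CPM in DH-LMP2A. Most of this sum was Hbb-bs and Hba-a1 (means 2735 and 2733 CPM of a mean sum of 6255 CPM in DH-LMP2A). Of the 8 markers 7 had a log2 fold change above 0 in both comparisons with WT. The exception was Epor, at 8.34 to 12.4 CPM in WT, 7.28 to 10.6 CPM in kFRA and 4.26 to 7.56 CPM in DH-LMP2A. DH-LMP2A replicate 3 stood apart from its group with the highest of these erythroid sums.

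The T cell signal itself was small. All 37 genes had at least 1 count in every library, and 30 of them had more than 3 counts in every library. The 3 CD3 chains had between 20 and 205 counts each, and their summed level was 4.95, 5.43 and 21.5 CPM in DH-LMP2A replicates 1 to 3, 4.72, 3.90 and 10.5 CPM in kFRA and 4.41, 6.89 and 11.0 CPM in WT. DH-LMP2A replicate 3 was thus the highest of all 9 libraries, and the ranges of the 3 genotypes overlapped. In bulk RNA, fewer cells of a type and less RNA per cell cannot be told apart. Since nothing in the labels ties the replicates to anything but separate mice, p-values measure the spread between 3 mice per genotype.

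**Figure D1:**
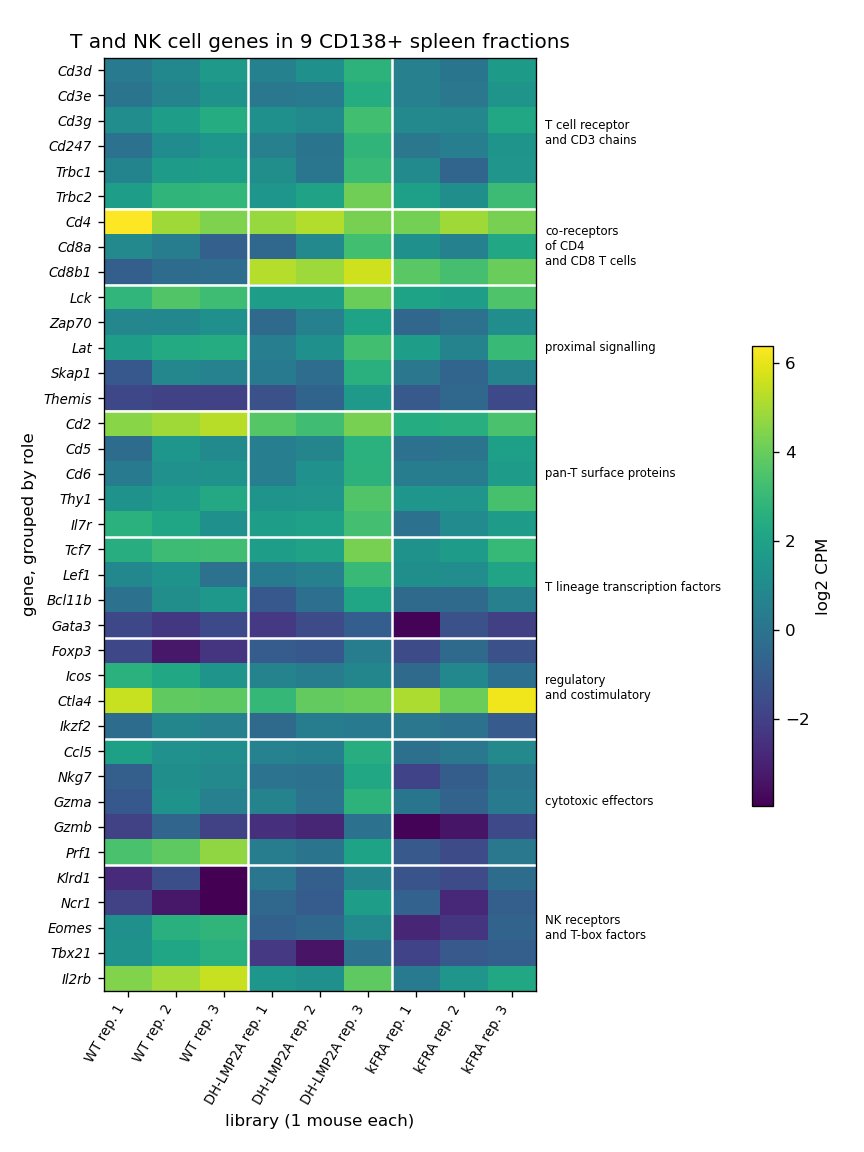
Heat map of the 37 T and NK cell genes (rows, grouped by role) in the 9 libraries (columns, grouped by genotype), coloured by log2 CPM. DH-LMP2A replicate 3 is brighter than the other DH-LMP2A libraries in 35 of 37 rows, Cd8b1 is dark in the 3 WT libraries, and Prf1, Eomes, Tbx21 and Il2rb are brighter in the 3 WT libraries than in the others.

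The receptor and CD3 chains varied together from library to library. Cd3e, an invariant CD3 chain, was at 1.14, 1.21 and 5.49 CPM in DH-LMP2A replicates 1 to 3, at 1.44, 1.09 and 2.63 CPM in kFRA and at 1.01, 1.58 and 2.48 CPM in WT. Trbc2, the second constant region of the receptor beta chain, was at 2.79, 3.94 and 17.7 CPM in DH-LMP2A, at 3.69, 2.28 and 8.66 CPM in kFRA and at 3.60, 6.89 and 7.45 CPM in WT. In both genes DH-LMP2A replicate 3 was the highest library and the genotypes overlapped. The zeta chain Cd247, the remaining CD3 chains Cd3d and Cd3g, and Trbc1 had the same highest library. None of the 6 receptor and CD3 genes passed the test in any of the 3 comparisons (edgeR's quasi-likelihood test with Benjamini-Hochberg adjustment, threshold 0.05). Of all 14199 genes tested, 5.02% passed in kFRA against DH-LMP2A (1.73% higher, 3.3% lower), 17.8% in kFRA against WT (6.68% higher, 11.1% lower) and 12.4% in DH-LMP2A against WT (5.07% higher, 7.3% lower). Trbc1 and Trbc2 are 95.585% identical over 521 bases, so the split of reads between them is uncertain, and Cd247 overlaps exons of Pou2f1.

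Proximal signalling genes and pan-T surface proteins largely followed the CD3 chains. Lck was at 3.55, 3.48 and 16.7 CPM in DH-LMP2A, at 4.10, 3.47 and 11.5 CPM in kFRA and at 7.09, 11.9 and 9.04 CPM in WT. Thy1, a surface protein of T cells, was at 2.58, 2.69 and 11.9 CPM in DH-LMP2A, at 2.74, 2.71 and 10.3 CPM in kFRA and at 2.48, 3.26 and 4.78 CPM in WT. For both genes replicate 3 was far above the other libraries in DH-LMP2A and in kFRA, and the genotypes overlapped. The adaptors Lat and Skap1, the kinase Zap70 and the surface proteins Cd5 and Cd6, which tune the receptor signal, overlapped between the genotypes as well and passed no test. Themis, needed in the thymus for T cell selection, was at 0.381, 0.650 and 3.07 CPM in DH-LMP2A, at 0.479, 0.714 and 0.314 CPM in kFRA and at 0.304, 0.255 and 0.255 CPM in WT. Each DH-LMP2A and each kFRA library was above the WT libraries for Themis in CPM, but the counts were low. They were 9, 14 and 67 in DH-LMP2A, 7, 15 and 5 in kFRA and 6, 5 and 4 in WT. The place of kFRA replicate 3 above WT replicate 1 therefore rests on the scaling. The log2 fold change of Themis was 2.30 (SE 0.784) for DH-LMP2A against WT and missed the threshold (edgeR, Benjamini-Hochberg adjusted p = 0.0926). It passed without DH-LMP2A replicate 1 (adjusted p = 0.0472 with edgeR) and with DESeq2's Wald test (adjusted p = 0.0352).

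Among the transcription factors of the T lineage, Tcf7, which keeps T cells in a naive or memory state, was the most abundant per kilobase of exon. It was at 3.47, 4.04 and 19.4 CPM in DH-LMP2A, at 2.46, 3.28 and 7.84 CPM in kFRA and at 5.57, 8.62 and 9.17 CPM in WT, with DH-LMP2A replicate 3 again the highest and the genotypes overlapping. Lef1, its close relative, and Bcl11b, which fixes T cell identity, overlapped too. Gata3, the factor of type 2 helper T cells, was near the floor at 0.0684 to 0.549 CPM over the 9 libraries and was left out by the filter on low counts. Il7r, the receptor of the survival factor interleukin 7, was at 3.51, 3.90 and 9.79 CPM in DH-LMP2A, at 0.958, 2.05 and 3.26 CPM in kFRA and at 6.28, 4.34 and 2.36 CPM in WT. Every kFRA library was below every DH-LMP2A library for Il7r, with a log2 fold change of -1.45 (SE 0.552) that missed the threshold (edgeR, Benjamini-Hochberg adjusted p = 0.170).

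DH-LMP2A replicate 3 was the highest DH-LMP2A library for 35 of the 37 genes, the exceptions being Cd4 and Ikzf2. Its CPM was a median of 4.50 times the mean of the other two DH-LMP2A libraries over the 37 genes, more than 2-fold for 31 and more than 3-fold for 27 of them. The ratio was lowest for Cd4 (0.596), Ikzf2 (1.13), Icos (1.21), Cd8b1 (1.48), Ctla4 (1.49) and Cd2 (1.78). In the same library the erythroid markers summed to 13564 CPM against 2533 and 2667 CPM in replicates 1 and 2, the B cell markers to 1262 against 886 and 820 CPM, and the myeloid markers to 3215 against 5158 and 5588 CPM. The part of these cells in the values of the T and NK cell genes was not tested. Among the kFRA libraries replicate 3 was the highest for 30 of the 37 genes, and among the WT libraries replicate 3 for 19.

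Dividing each gene by the summed CPM of Cd3d, Cd3e and Cd3g in the same library separated genes that kept a steady ratio to the CD3 chains from genes that did not. For 14 of the 37 genes the ratio stayed within a 3-fold range over all 9 libraries, among them the 3 CD3 chains, which are part of the divisor. The others were Trbc2, Cd247, Cd6, Cd5, Thy1, Tcf7, Lck, Skap1, Zap70, Lat and Trbc1, with ranges from 1.77-fold for Trbc2 to 2.86-fold for Lat and Trbc1. At the other end 11 genes varied more than 10-fold, namely Foxp3 (13.2-fold), Ctla4 (13.4-fold), Icos (17.3-fold), Il2rb (18.8-fold), Cd4 (21.1-fold), Ncr1 (28.2-fold), Prf1 (28.4-fold), Eomes (30.2-fold), Klrd1 (36.8-fold), Tbx21 (37.7-fold) and Cd8b1 (100-fold). Low counts add to the range for Foxp3, Ncr1, Klrd1, Eomes and Tbx21, each of which was at or below 3 counts in at least 1 library.

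**Figure D2:**
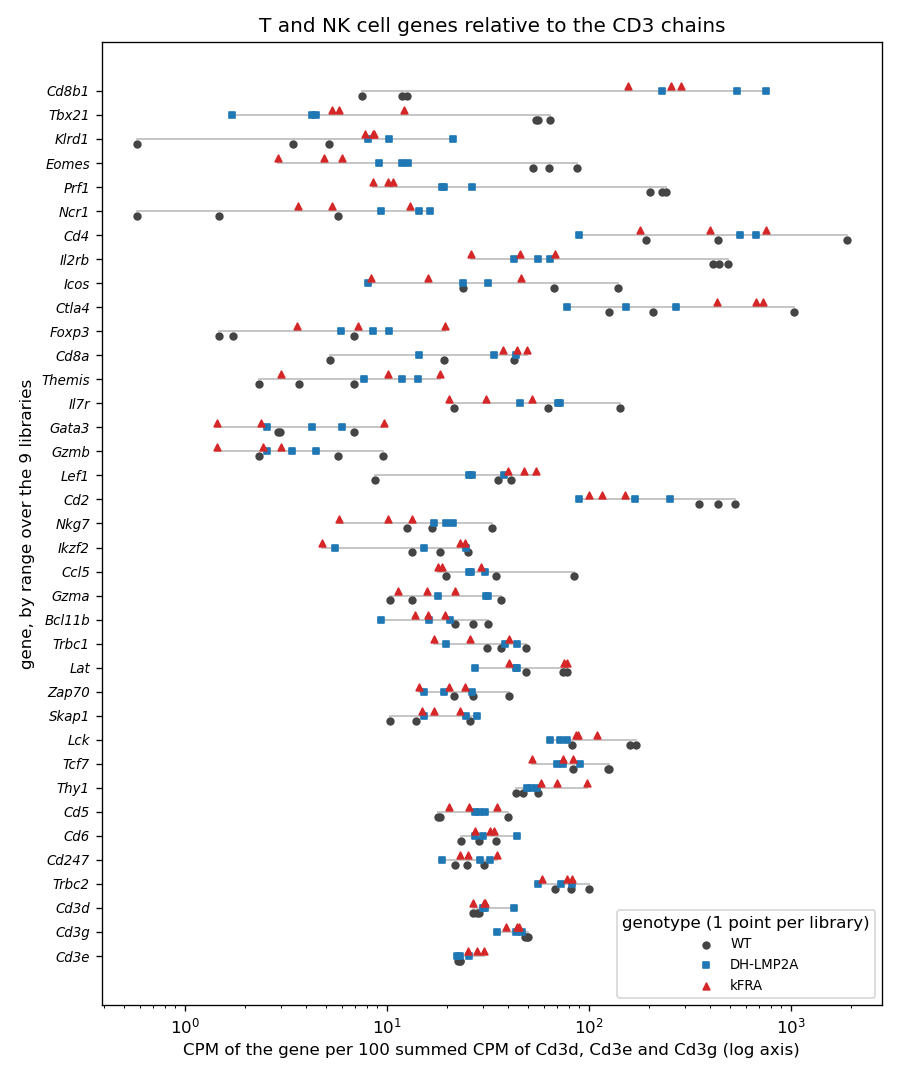
CPM of each of the 37 genes per 100 summed CPM of Cd3d, Cd3e and Cd3g (log axis), 1 point per library, with genes ordered from the smallest range over the 9 libraries at the bottom to the largest at the top. The ratio of Trbc2 spans a 1.77-fold range, whereas Cd8b1 runs from 7.56 in a WT library to 755.6 in a DH-LMP2A library.

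Of the 37 genes Cd8b1 departed most from the CD3 chains, and it passed the test in all 3 comparisons. Cd8b1, on chromosome 6 (GRCm38) from 71322788 to 71337494, encodes the beta chain of CD8. It was at 37.4, 29.5 and 49.4 CPM in DH-LMP2A replicates 1 to 3, at 13.5, 9.94 and 16.4 CPM in kFRA and at 0.557, 0.816 and 0.828 CPM in WT. The 3 genotypes did not overlap, with DH-LMP2A the highest and WT the lowest. The means were 38.8 ± 10.1, 13.3 ± 3.22 and 0.734 ± 0.153 CPM (SD, n = 3 each). Per kilobase of exon Cd8b1 ranked 1 of the 37 genes in DH-LMP2A (26.1 CPM per kb), 2 in kFRA (8.94 CPM per kb) and 25 in WT (0.495 CPM per kb). By edgeR with Benjamini-Hochberg adjustment over 14199 genes, its log2 fold change was 5.72 (SE 0.310, adjusted p = 5.17e-06) for DH-LMP2A against WT. It was 4.17 (SE 0.302, adjusted p = 1.68e-05) for kFRA against WT and -1.55 (SE 0.240, adjusted p = 0.00540) for kFRA against DH-LMP2A. These calls held in all 9 fits that left out 1 library and in all 8 other settings of each comparison.

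Cd8a, which encodes the alpha chain and starts at base 71373427 of the same chromosome, did not share this pattern. It was at 0.719, 1.86 and 9.38 CPM in DH-LMP2A, at 2.33, 1.47 and 4.64 CPM in kFRA and at 1.87, 1.33 and 0.573 CPM in WT. The genotypes overlapped, and the log2 fold changes of Cd8a against WT, 1.64 (SE 0.868) for DH-LMP2A and 1.13 (SE 0.878) for kFRA, did not pass (edgeR, Benjamini-Hochberg adjusted p = 0.273 and 0.374). Without correction for length, the CPM of Cd8b1 was 5.27 to 52.0 times that of Cd8a in DH-LMP2A, 3.53 to 6.74 times in kFRA and 0.297 to 1.44 times in WT. The neighbouring genes Krcc1 and Rmnd5a, looked up after the values of Cd8b1 were seen, lay at 19.2 to 26.3 CPM and at 49.4 to 86.3 CPM over the 9 libraries. Cd8b1 begins 595.8 kb beyond the end of Igkc, the constant region of the kappa light chain. The longest transcript of Cd8b1 shares stretches of 85 to 154 bases, at least 95% identical, with 22 other genes, of which 0 are immunoglobulin genes, and how reads that fit several genes were counted is not given in the sources used here. The sum of the plasma cell markers was also highest in DH-LMP2A, at 33812 to 46697 CPM. It was 20079 to 31774 CPM in kFRA and 18651 to 23936 CPM in WT. Most of this sum was Jchain (mean 30965 CPM of a mean sum of 38729 CPM in DH-LMP2A), and not every marker followed it. Tnfrsf17 was at 41.3 to 59.5 CPM in WT, 15.6 to 29.0 CPM in DH-LMP2A and 12.4 to 19.2 CPM in kFRA. Of the 7 markers 1 had a log2 fold change above 0 in kFRA against DH-LMP2A. The part of plasma cells in the level of Cd8b1 was not tested.

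Cd4 ranked 3 of the 37 genes per kilobase of exon in WT (11.1 CPM per kb) and 4 in DH-LMP2A (6.92 CPM per kb) and kFRA (5.56 CPM per kb), and it did not follow the CD3 chains. It was at 27.8, 36.7 and 19.2 CPM in DH-LMP2A, at 18.7, 29.6 and 18.9 CPM in kFRA and at 83.4, 30.0 and 21.0 CPM in WT. WT replicate 1 was the highest of the 9 libraries and had the lowest CD3 sum of the WT libraries, while DH-LMP2A replicate 3, with the highest CD3 sum, was the lowest DH-LMP2A library for Cd4. The genotypes overlapped. Per 100 CPM of CD3 chains Cd4 was at 89.6 to 676.1 CPM in DH-LMP2A, 180.2 to 758.5 CPM in kFRA and 191.9 to 1892 CPM in WT. Of the myeloid markers, all 10 of which were detected in every library, 9 had a log2 fold change below 0 in kFRA against WT and 9 in DH-LMP2A against WT. The exception was Ly6c2, at 204.0 to 453.8 CPM in WT, 2107 to 2399 CPM in DH-LMP2A and 2161 to 4026 CPM in kFRA. Without Ly6c2, set apart after its values were seen, the other 9 summed to 3732 to 6468 CPM in WT, 1108 to 3425 CPM in DH-LMP2A and 2162 to 3449 CPM in kFRA. WT replicate 1 had the highest of these sums, and the part of myeloid cells, some of which carry CD4, in the level of Cd4 was not tested.

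Prf1, Il2rb, Tbx21, Eomes and Cd2 were higher in each WT library than in each library of the other genotypes. Tbx21 and Eomes encode the T-box transcription factors T-bet and eomesodermin, which drive the killing programme of T and NK cells, Prf1 encodes perforin and Il2rb the beta chain shared by the receptors of interleukins 2 and 15. Because these genes carry the difference and the NK genes Ncr1 and Gzma do not share it, the 250 bases before the start of Tbx21, Eomes, Ncr1 and Gzma are shown, in the sense direction of each gene from RefSeq on GRCm38.p6. They lie at chr11:97115332-97115581 (minus strand), chr9:118477939-118478188 (plus strand), chr7:4337474-4337723 (plus strand) and chr13:113100982-113101231 (minus strand).
Tbx21: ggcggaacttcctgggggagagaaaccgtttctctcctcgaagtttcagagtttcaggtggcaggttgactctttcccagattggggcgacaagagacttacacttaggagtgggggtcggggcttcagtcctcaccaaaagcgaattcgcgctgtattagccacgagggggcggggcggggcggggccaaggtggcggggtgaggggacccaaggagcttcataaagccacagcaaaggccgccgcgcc
Eomes: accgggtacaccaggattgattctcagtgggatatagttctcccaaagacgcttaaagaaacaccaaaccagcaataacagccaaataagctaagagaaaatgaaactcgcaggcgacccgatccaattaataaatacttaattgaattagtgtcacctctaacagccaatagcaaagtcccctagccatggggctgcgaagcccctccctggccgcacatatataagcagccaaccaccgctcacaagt
Ncr1: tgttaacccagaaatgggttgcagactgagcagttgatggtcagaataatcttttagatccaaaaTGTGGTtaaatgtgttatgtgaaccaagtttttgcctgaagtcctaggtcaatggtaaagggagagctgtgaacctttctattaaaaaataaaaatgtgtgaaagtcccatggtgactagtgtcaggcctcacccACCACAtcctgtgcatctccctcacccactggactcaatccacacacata
Gzma: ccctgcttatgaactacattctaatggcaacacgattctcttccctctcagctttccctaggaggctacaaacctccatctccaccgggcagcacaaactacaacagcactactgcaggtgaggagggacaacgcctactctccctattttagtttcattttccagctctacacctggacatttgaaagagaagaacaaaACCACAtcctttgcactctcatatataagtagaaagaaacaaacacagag
Capitals mark matches to the Runt motif TGTGGT on either strand, read as ACCACA on the other. 2 other motifs were searched on both strands, the T-box motif GGTGTGA and the E-box CAGCTG. Of 32851 promoters of the same length 14.05% hold the Runt motif, 3.33% the T-box motif and 13% the E-box. Ncr1 had 2 Runt matches and Gzma had 1, and the windows of Tbx21 and Eomes had 0 matches to any of the 3. The window of Prf1, not printed because it overlaps an exon, had 1 Runt and 1 E-box match. A match is a description of these letters only.

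Tbx21, on chromosome 11, was at 2.48, 4.44 and 5.99 CPM in WT, at 0.212, 0.0928 and 0.961 CPM in DH-LMP2A and at 0.274, 0.476 and 0.565 CPM in kFRA. Eomes, on chromosome 9, was at 2.33, 6.02 and 6.94 CPM in WT, at 0.592, 0.696 and 1.97 CPM in DH-LMP2A and at 0.137, 0.190 and 0.627 CPM in kFRA. In both genes every WT library was above every library of the other genotypes. The log2 fold change of Tbx21 against WT was -3.33 (SE 0.672) in DH-LMP2A and -3.26 (SE 0.685) in kFRA (edgeR, Benjamini-Hochberg adjusted p = 0.0118 and 0.0121). That of Eomes was -2.23 (SE 0.607) in DH-LMP2A and -3.99 (SE 0.711) in kFRA (edgeR, Benjamini-Hochberg adjusted p = 0.0425 and 0.00571). The comparisons of DH-LMP2A and kFRA with WT share the WT libraries. The calls of Tbx21 were lost by a narrow margin without DH-LMP2A replicate 1 (adjusted p = 0.0547) and without kFRA replicate 1 (adjusted p = 0.0549). That of Eomes in DH-LMP2A was lost without DH-LMP2A replicate 1 or 2, kFRA replicate 1 or WT replicate 2 or 3, with adjusted p from 0.0542 to 0.146. Eomes also overlaps an exon of Gm33460 on the opposite strand.

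Prf1, on chromosome 10 from 61297836 to 61304263, was at 10.7, 13.9 and 25.2 CPM in WT, at 1.31, 1.02 and 4.12 CPM in DH-LMP2A and at 0.479, 0.333 and 1.13 CPM in kFRA. Il2rb, on chromosome 15 from 78480553 to 78495066, was at 21.6, 30.4 and 45.2 CPM in WT, at 2.79, 2.32 and 13.9 CPM in DH-LMP2A and at 1.23, 2.66 and 4.77 CPM in kFRA. Every WT library was above every other library for both genes, and DH-LMP2A replicate 3 came next. Prf1 was 7.70-fold lower in DH-LMP2A than in WT (log2 fold change -2.94, SE 0.585, adjusted p = 0.0110 with edgeR) and 25.9-fold lower in kFRA (-4.69, SE 0.673, adjusted p = 0.00182). Il2rb was 11.2-fold lower in kFRA than in WT (log2 fold change -3.48, SE 0.739, adjusted p = 0.0125 with edgeR). For DH-LMP2A against WT the log2 fold change of Il2rb was -2.36 (SE 0.688) and missed the threshold (edgeR, Benjamini-Hochberg adjusted p = 0.0551). It passed in 5 alternatives, among them the fit without DH-LMP2A replicate 3 (log2 fold change -3.65, adjusted p = 0.00402 with edgeR). Leaving out kFRA replicate 1 lost the call of Il2rb in kFRA (adjusted p = 0.0533), and leaving out DH-LMP2A replicate 1 that of Prf1 in DH-LMP2A (adjusted p = 0.0531).

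Prf1, Il2rb and Tbx21 kept a narrow ratio to the CD3 chains within WT, as did Prf1 within kFRA. Per 100 CPM of CD3 chains Prf1 was at 201.5 to 242.5 CPM in WT, 18.8 to 26.5 CPM in DH-LMP2A and 8.54 to 10.8 CPM in kFRA. Il2rb was at 412.2 to 489.7 CPM in WT, 42.7 to 64.6 CPM in DH-LMP2A and 26.1 to 68.3 CPM in kFRA. Tbx21 was at 54.7 to 64.4 CPM in WT, 1.71 to 4.48 CPM in DH-LMP2A and 5.39 to 12.2 CPM in kFRA. Eomes was at 52.9 to 87.4 CPM in WT, 9.17 to 12.8 CPM in DH-LMP2A and 2.90 to 5.99 CPM in kFRA. Cd2 was at 352.3 to 528.7 CPM in WT, 90.0 to 253 CPM in DH-LMP2A and 100 to 151.2 CPM in kFRA. The WT range lay above the other ranges for each of these genes. The ratios are given as a description. The summed erythroid markers were lower in each WT library than in each library of the other genotypes. Summed over all 10, the myeloid markers did not separate WT. They were at 4185 to 6915 CPM in WT, 3215 to 5588 CPM in DH-LMP2A and 5611 to 6244 CPM in kFRA. Without Ly6c2, set apart after its values were seen, the sum of the other 9 was higher in each WT library. Of the 10 myeloid markers 5 were lower in every kFRA library than in every WT library, against 20.2% of all genes. In DH-LMP2A 6 were lower in this way, against 19.1% of all genes. The part of erythroid and myeloid cells in the values was not tested. The summed B cell markers of WT, 708.8 to 1028 CPM, overlapped those of DH-LMP2A, 820.3 to 1262 CPM. Those of kFRA, 587.0 to 691.4 CPM, lay below both. Of the 10 B cell markers 6 were lower and 0 higher in every kFRA library than in every WT library, against 20.2% and 14.2% of all genes. In DH-LMP2A 1 was lower in this way, Cd22, and 3 were higher, against 19.1% and 17.5%. Cd22 was at 61.3 to 127.8 CPM in WT, 5.75 to 28.6 CPM in DH-LMP2A and 5.95 to 9.04 CPM in kFRA. The part of B cells was not tested.

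Cd2, which encodes an adhesion protein, was at 23.3, 30.0 and 38.6 CPM in WT, at 12.5, 9.19 and 19.3 CPM in DH-LMP2A and at 5.47, 5.90 and 10.5 CPM in kFRA. Per 100 CPM of CD3 chains it was at 90.0 to 528.7 CPM over the 9 libraries. Which cells of the fraction carried Cd2 was not tested. WT was above both other genotypes in every library, while DH-LMP2A and kFRA overlapped. Cd2 fell in kFRA against WT by 2.07 on the log2 scale (SE 0.344, edgeR, Benjamini-Hochberg adjusted p = 0.00400) and kept that call in all 9 fits that left out 1 library. In DH-LMP2A against WT it fell by 1.16 (SE 0.330) with an edgeR adjusted p of 0.0495. That call was lost without DH-LMP2A replicate 1 or 2, kFRA replicate 1 or any 1 of the WT libraries, and in 3 other settings, with adjusted p from 0.0531 to 0.157. Per kilobase of exon Cd2 was the highest of the 37 genes in WT (17.6 CPM per kb), followed by Il2rb (11.6 CPM per kb).

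**Figure D3:**
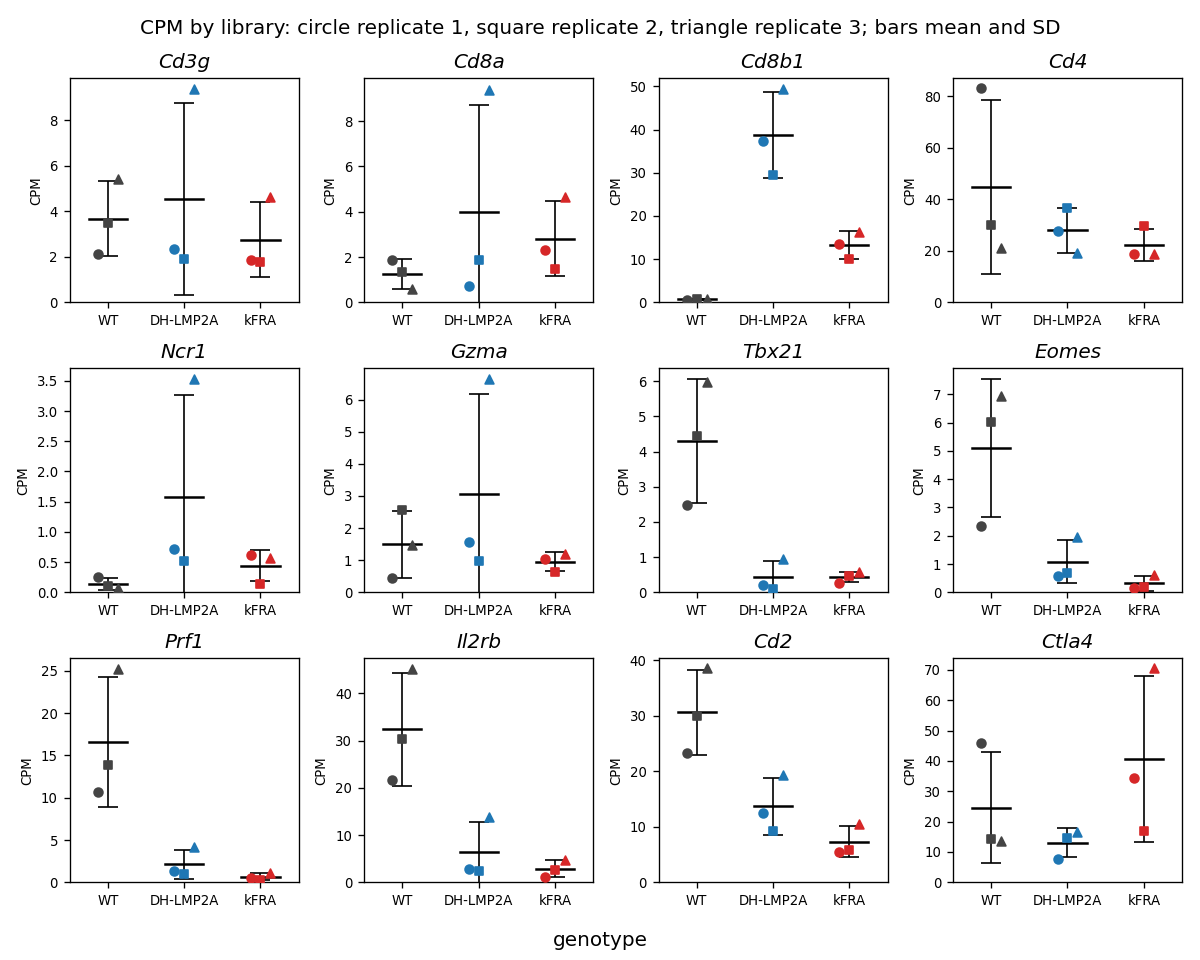
CPM of 12 of the genes by genotype, 1 point per library (circle, square and triangle for replicates 1, 2 and 3), with the mean and SD of 3 libraries as bars, cut at 0 where the SD exceeds the mean. Tbx21, Eomes, Prf1, Il2rb and Cd2 are highest in the 3 WT libraries, Cd8b1 is under 1 CPM in WT and above 9 CPM in the other libraries, and Cd3g, Cd8a and Gzma are highest in DH-LMP2A replicate 3.

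The NK receptor genes Ncr1 and Klrd1 went the other way, with their lowest mean CPM in WT. Other NK receptor genes did not all share this. Klrk1 had a mean of 9.12 CPM in WT, 10.1 CPM in DH-LMP2A and 2.99 CPM in kFRA. Klrc1 was at 0.996, 0.697 and 0.854 CPM and Cd244 at 45.9, 15.7 and 13.9 CPM in the same order. Receptor genes left out by the filter on low counts went both ways. Ncr1, on chromosome 7 from 4337724 to 4345164, had 5, 2 and 1 counts in the WT libraries, 17, 11 and 77 counts in DH-LMP2A and 9, 3 and 9 counts in kFRA. In CPM this was 0.253, 0.102 and 0.0637 in WT, 0.719, 0.510 and 3.52 in DH-LMP2A and 0.616, 0.143 and 0.565 in kFRA. Klrd1, which encodes CD94, was at 0.152, 0.357 and 0.0637 CPM in WT, at 1.06, 0.557 and 1.74 CPM in DH-LMP2A and at 0.410, 0.333 and 0.815 CPM in kFRA. For both genes every DH-LMP2A library was above every WT library, while kFRA overlapped WT. The log2 fold change for DH-LMP2A against WT was 3.40 (SE 0.938) for Ncr1 and 2.47 (SE 0.642) for Klrd1 (edgeR, Benjamini-Hochberg adjusted p = 0.0443 and 0.0355). The fold of Ncr1 rests on few WT counts and depends on the prior count of the fit. Its call was lost in 7 of 9 fits without 1 library, all but those without DH-LMP2A replicate 2 and without kFRA replicate 2, and with only the 6 libraries compared (adjusted p = 0.0639 with edgeR), and without DH-LMP2A replicate 3 its log2 fold change was 2.06 (adjusted p = 0.125). The call of Klrd1 was lost without DH-LMP2A replicate 1 or 3, kFRA replicate 1 or WT replicate 1 or 3 (adjusted p from 0.0538 to 0.114).

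The remaining killing genes passed no test. Gzma, a granzyme abundant in NK cells, was at 1.57, 0.974 and 6.64 CPM in DH-LMP2A, at 1.03, 0.618 and 1.19 CPM in kFRA and at 0.456, 2.55 and 1.46 CPM in WT. Nkg7, a protein of cytotoxic granules, was at 0.973, 0.928 and 4.58 CPM in DH-LMP2A, at 0.274, 0.523 and 1.07 CPM in kFRA and at 0.557, 2.30 and 1.85 CPM in WT. The genotypes overlapped for both, with DH-LMP2A replicate 3 the highest. Ccl5, a chemokine of activated T and NK cells, was at 2.17 to 3.75 CPM in WT and below that in each kFRA library (0.889, 1.14 and 1.88 CPM), with a log2 fold change of -1.09 (SE 0.574) that missed the threshold (edgeR, Benjamini-Hochberg adjusted p = 0.205). Gzmb was at or below 3 counts in 3 libraries and was left out by the filter on low counts. Without correction for length, the CPM of Prf1 was 5.44 to 23.4 times that of Gzma in WT, 0.621 to 1.05 times in DH-LMP2A and 0.467 to 0.947 times in kFRA. The CPM of Il2rb was 85.2 to 709.0 times that of Ncr1 in WT, 3.88 to 4.55 times in DH-LMP2A and 2.00 to 18.7 times in kFRA. In both ratios the WT range lay above the other ranges, with the defining NK gene Ncr1 at 1 to 5 counts in WT.

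Genes of regulatory T cells and of costimulation did not move as a group. Foxp3 had 12, 10 and 28 counts in DH-LMP2A, 5, 16 and 6 counts in kFRA and 6, 2 and 3 counts in WT. In CPM this was 0.508, 0.464 and 1.28 in DH-LMP2A, 0.342, 0.761 and 0.376 in kFRA and 0.304, 0.102 and 0.191 in WT. Every WT library was below every other library, but neither the log2 fold change of 1.88 (SE 0.607) in DH-LMP2A nor that of 1.32 (SE 0.640) in kFRA passed (edgeR, Benjamini-Hochberg adjusted p = 0.0784 and 0.174). With library size alone as the scaling, Foxp3 passed in DH-LMP2A against WT (log2 fold change 2.18, edgeR adjusted p = 0.0466). Foxp3 overlaps exons of Ccdc22. Ikzf2, the gene of Helios, a factor of many regulatory T cells, was at 0.502 to 1.73 CPM over the 9 libraries with overlapping genotypes.

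Ctla4, an inhibitory receptor of activated and regulatory T cells, was at a far higher level per kilobase of exon than Foxp3 in every genotype. It was at 34.3, 16.8 and 70.6 CPM in kFRA, at 7.62, 14.8 and 16.7 CPM in DH-LMP2A and at 45.9, 14.3 and 13.8 CPM in WT. Each kFRA library was above each DH-LMP2A library, kFRA replicate 2 only slightly, and WT overlapped both. The log2 fold change for kFRA against DH-LMP2A was 1.64 (SE 0.610) and missed the threshold (edgeR, Benjamini-Hochberg adjusted p = 0.162). Ctla4 passed in this comparison without kFRA replicate 2 (log2 fold change 2.08, edgeR adjusted p = 0.0345) and with DESeq2's Wald test (1.68, adjusted p = 0.0351). Per kilobase of exon Ctla4 ranked 1 of the 37 genes in kFRA (17.4 CPM per kb), 4 in WT (10.6 CPM per kb) and 5 in DH-LMP2A (5.59 CPM per kb).

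Icos, a costimulatory receptor of helper T cells, is encoded beside Ctla4 on chromosome 1 and had another pattern. It was at 6.18, 4.64 and 2.61 CPM in WT, at 1.57, 1.30 and 1.74 CPM in DH-LMP2A and at 0.752, 1.81 and 0.878 CPM in kFRA. Every WT library was above the others. Icos fell against WT by 1.55 on the log2 scale in DH-LMP2A (SE 0.400) and by 1.94 in kFRA (SE 0.414), with edgeR adjusted p of 0.0347 and 0.0129. In DH-LMP2A the call was lost without any 1 of the DH-LMP2A libraries and without WT replicate 1 or 2, with adjusted p from 0.0641 to 0.119. It was also lost with library size alone as the scaling (log2 fold change -1.25, edgeR adjusted p = 0.106). In kFRA it was lost without kFRA replicate 1 (adjusted p = 0.0544) and without kFRA replicate 3 (adjusted p = 0.0502).

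To describe the mix of subsets, Cd4, Cd8a, Foxp3 and Ncr1 were each divided by the CD3 sum and compared between genotypes on the log2 scale, 12 exact permutation tests in all, for which 3 against 3 libraries cannot give a 2-sided p below 0.1. The ratios overlapped in 11 of the 12. For Ncr1 the DH-LMP2A ratios were all above the WT ratios, with a difference of 2.94 on the log2 scale (exact permutation p = 0.1, Benjamini-Hochberg adjusted p = 0.4).

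Over all 37 genes, 35 passed the filter on low counts and were tested. In kFRA against DH-LMP2A 1 of the 35 passed the test as lower, Cd8b1, and 0 as higher, where 3.3% of all 14199 genes passed as lower, 1.73% as higher and 5.02% in either direction. The libraries did not overlap for 1 gene that was higher in kFRA (Ctla4) and for 2 that were lower (Cd8b1, Il7r), against 11.6% and 13.9% of all genes. In kFRA against WT 7 passed, 1 higher (Cd8b1) and 6 lower (Cd2, Icos, Prf1, Eomes, Tbx21, Il2rb), where 6.68% of all genes passed as higher, 11.1% as lower and 17.8% in either direction. The libraries did not overlap for 3 genes higher and 7 lower, against 14.2% and 20.2% of all genes. In DH-LMP2A against WT 8 passed, 3 higher (Cd8b1, Klrd1, Ncr1) and 5 lower (Cd2, Icos, Prf1, Eomes, Tbx21), where 5.07% of all genes passed as higher, 7.3% as lower and 12.4% in either direction. The libraries did not overlap for 5 genes higher and 6 lower, against 17.5% and 19.1% of all genes. With library size alone as the scaling, the median log2 fold change of all genes moved to 0.17 for kFRA against WT and 0.33 for DH-LMP2A against WT. The genes past the threshold then split into 2363 higher and 917 lower for kFRA against WT, instead of 948 and 1575, and into 2053 and 518 for DH-LMP2A against WT, instead of 720 and 1036. Of the 35 genes, 1 was then higher and 6 lower in kFRA against WT, and 4 higher and 3 lower in DH-LMP2A against WT.

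**Figure D4:**
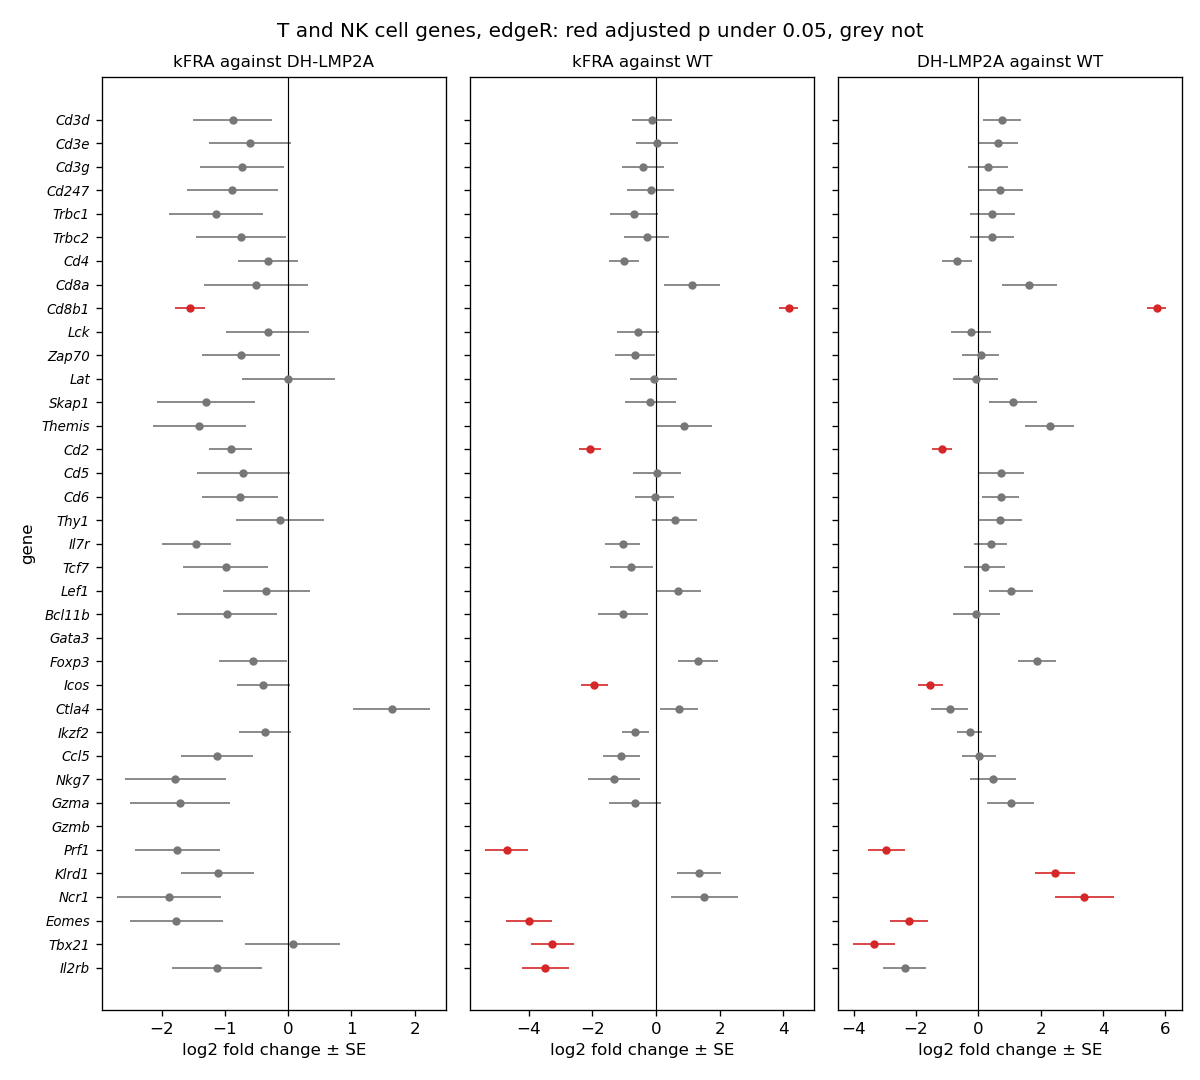
Log2 fold change of each tested T and NK cell gene with its SE (horizontal bars) in the 3 comparisons, red where the edgeR adjusted p was under 0.05 and grey where it was not, with a different horizontal scale in each panel. Cd8b1 is red in all 3 panels, Prf1, Eomes, Tbx21, Cd2 and Icos are red to the left of 0 in both comparisons with WT, and the receptor and CD3 chains are grey throughout.

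The median of the list changed sign when 1 library was left out. The median log2 fold change of the 35 genes was -0.88 for kFRA against DH-LMP2A, -0.41 for kFRA against WT and 0.45 for DH-LMP2A against WT, where the median over all genes was -0.0049, -0.038 and -0.0081. Without DH-LMP2A replicate 3 the median of the 35 genes became 0.13 for kFRA against DH-LMP2A, with 22 genes above 0 instead of 3. For DH-LMP2A against WT it became -0.63, with 6 genes above 0 instead of 23. Without that library 5 of the 35 genes passed as lower and 1 as higher in DH-LMP2A against WT, where 813 and 494 of all 14199 genes did. In kFRA against DH-LMP2A 1 of the 35 passed, where 515 of all genes did. The 3 comparisons share libraries, so their medians are not independent.

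**Figure D5:**
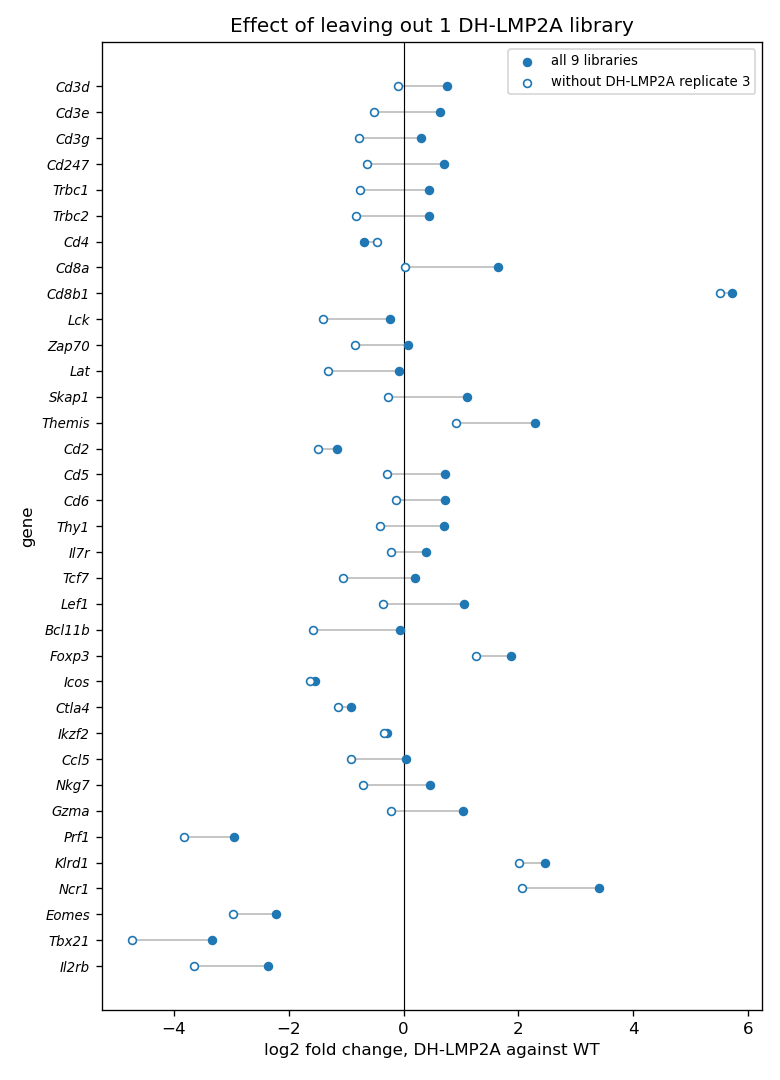
Log2 fold change of each tested gene for DH-LMP2A against WT with all 9 libraries (filled) and without DH-LMP2A replicate 3 (open). Most open points lie to the left of the filled ones and below 0, while Cd8b1 stays above 5 and Cd4, Icos and Ikzf2 move little.

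Other genes of the same pathways were read from lists by role. Of 26 other T cell receptor signalling genes 25 were tested. Of these 0 were higher and 1 lower in kFRA against DH-LMP2A, where 1.73% and 3.3% of all genes were (Cd28, a costimulatory receptor, log2 fold change -0.63, SE 0.120, edgeR adjusted p = 0.0174). In kFRA against WT 0 were higher and 4 lower, where 6.68% and 11.1% of all genes were, led by Ptpn6, the phosphatase SHP-1 (-1.05, SE 0.184, adjusted p = 0.00531 with edgeR). In DH-LMP2A against WT 2 were higher, Cd27 (2.32, SE 0.543, edgeR adjusted p = 0.0230) and Cd28 (0.58, SE 0.120, adjusted p = 0.0128), and 1 was lower, Ptpn6 (-0.94, SE 0.184, adjusted p = 0.0100), where 5.07% and 7.3% of all genes were. The list's median log2 fold changes were -0.25, -0.31 and -0.15 in this order of comparisons. Many of these genes are not restricted to T cells.

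Of 21 other T subset genes 16 were tested, and in every comparison those that passed were lower. Cxcr3, a chemokine receptor of type 1 T cells, was at 29.1, 22.6 and 37.3 CPM in WT, at 0.635, 1.16 and 1.74 CPM in DH-LMP2A and at 0.752, 2.00 and 2.01 CPM in kFRA. WT was above both other genotypes in every library for Cxcr3, with log2 fold changes of -4.65 (SE 0.432) in DH-LMP2A and -4.20 (SE 0.424) in kFRA (edgeR, Benjamini-Hochberg adjusted p = 0.000160 and 0.000185). In DH-LMP2A against WT 3 genes were lower, against 7.3% of all genes, Cxcr3 and the inhibitory receptors Lag3 (-1.21, SE 0.280) and Pdcd1 (-2.03, SE 0.521). In kFRA against WT 7 were lower, against 11.1% of all genes. In kFRA against DH-LMP2A 4 were lower, against 3.3% of all genes, among them S1pr1, the receptor that guides T cells out of lymphoid organs (-1.79, SE 0.298). Of 22 other NK and cytotoxic genes only 5 passed the filter on low counts. The activating receptor gene Klrk1 was lower in kFRA than in DH-LMP2A (-1.74, SE 0.403, edgeR adjusted p = 0.0409) and than in WT (-1.59, SE 0.404, adjusted p = 0.0259). Cd244 was lower in kFRA than in WT (-1.72, SE 0.480, edgeR adjusted p = 0.0372) and Ctsw was higher in DH-LMP2A than in WT (1.44, SE 0.266, adjusted p = 0.00801).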

How the data were processed

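RNA was sequenced from 9 CD138-selected spleen fractions, 3 mice per genotype. The authors deposited raw counts per gene. STAR 2.4.0a, featureCounts in Subread 1.5.0-p3, DESeq2 and the builds mm10 and GRCm38 are named per the submitters' processing notes. The library kit keeps strand, per the labels' protocols, and the strand setting of the counting and the treatment of reads that fit several places are not given in the sources used here. The coordinates of 28 of the 37 genes, per the file headers, were identical to GENCODE M21 on GRCm38, and all 37 overlapped it. 11 of the 37 genes overlap exons of other genes, so their values are uncertain. The exon length is a separate column of the deposited table, used for CPM per kb.

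Genes were filtered with filterByExpr by genotype (14199 kept, 258 of them immunoglobulin genes), scaled by TMM and tested with edgeR 4.0.16 (R 4.3.3) by the quasi-likelihood F test over all 9 libraries. Immunoglobulin genes took 27.3% to 55.4% of the counts. P-values were 2-sided and adjusted by Benjamini-Hochberg over all genes tested, with a threshold of 0.05. The SE is the log2 fold change divided by the square root of F. The fits for other scalings, filters and left-out libraries, and DESeq2 1.42.0, are reported in the closing section. A covariate of log2 CPM of the CD3 chains was added after seeing the data. Floors cover only counting error, as no molecular identifiers tell PCR copies apart. Replicates of every pair differed by more than sampling noise (chi-square per degree of freedom 17.3 to 163.9). Replicate numbers come from the sample titles and name different mice. Tested on simulated data for kFRA against DH-LMP2A over 14199 genes, edgeR recovered 35 of 100 genes changed 2-fold and 78 of 100 changed 4-fold, with 8 false calls. The changed genes were drawn at random from all genes tested. The recovery is therefore not that of the T and NK cell genes, many of which had low counts.

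The members and lists were chosen with earlier results of these data known. By the naming rule all 37 genes are named, and at most the 3 genes with the smallest p-value of each other list in each comparison. Promoter sequences are from RefSeq, which held 24 of the 37 genes. Shared sequence was searched with BLAST+ 2.17.0, and figures and tests of single values used Python 3.11.15, scipy 1.17.1 and matplotlib 3.10.9.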

Additional observations from a re-analysis of the deposited data

How the results depend on the processing

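Left-out libraries moved the counts most. Genes past the threshold numbered 713 for kFRA against DH-LMP2A (355 to 3304 without 1 library, highest without kFRA replicate 2), 2523 for kFRA against WT (1259 to 5569, highest without kFRA replicate 2) and 1756 for DH-LMP2A against WT (933 to 2285, highest again without kFRA replicate 2, since all 9 libraries share the estimate of the spread). DESeq2's Wald test gave 1405 for kFRA against DH-LMP2A. T and NK cell genes past the threshold numbered 1 (1 to 2 without 1 library), 7 (4 to 7) and 8 (2 to 8) in the same order, lowest without kFRA replicate 1 and without DH-LMP2A replicate 1. Their median log2 fold change lay between -1.34 and 0.13, between -0.89 and -0.10 and between -0.63 and 0.77, and changed sign in the first and the last without DH-LMP2A replicate 3. For kFRA against DH-LMP2A 2 T and NK cell genes passed with DESeq2's Wald test and 2 with the CD3 covariate, where 889 of all genes passed. That covariate was chosen after seeing the data and turned the median for DH-LMP2A against WT to -0.19. Its CD3 chains are themselves among the genes counted, so genes that follow these chains move by construction. What else moved the median was not tested. Over single genes, 83 of 945 fits without 1 library changed direction (46 of 840 apart from DH-LMP2A replicate 3), 20 of 105 with the CD3 covariate and 18 of 735 in the other settings, 0 of them for a gene past the threshold.

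Over all genes, same-numbered libraries did not as a rule deviate together (r from -0.21 to 0.20 over 9 pairs). Of the 9 libraries 1 correlated best with its own number in both other genotypes. The pairs of replicate 3 had r of 0.122, 0.160 and 0.162. Those of replicate 1 had -0.0617, 0.0586 and -0.211, and those of replicate 2 had 0.196, -0.0350 and 0.00223. Such weak r over few libraries cannot show or exclude that the numbers pair the samples. With the replicate block 3 T and NK cell genes passed for kFRA against DH-LMP2A (Cd8b1, Cd2 and Prf1), Klrd1 was lost and Il2rb gained for DH-LMP2A against WT (edgeR adjusted p = 0.0518 and 0.00303), and 685, 2930 and 2067 of all genes passed in the 3 comparisons. Gata3 and Gzmb were too low to be tested, and 7 of the 37 genes were at or below the floor of 3 counts in at least 1 library.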

Other observations

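WT replicate 1 had the lowest CD3 sum of the WT libraries but the highest Cd4 and Ctla4. Cd4 was 2.78 times and Ctla4 3.21 times the level of the next WT library. Its myeloid markers other than Ly6c2 summed to 6468 CPM, against 4917 and 3732 CPM in WT replicates 2 and 3, and their part in these values was not tested. Trbc2 was at 1.27 to 3.70 times the CPM of Trbc1 over the 9 libraries, and between 2.05 and 2.22 times in WT.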
